A study of Rattus norvegicus with 82 samples.

Results

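The collagen genes of rat ventricular cardiomyocytes were taken as every gene in the count table whose symbol has the form of a collagen chain (Col, a type number, a, a chain number) and whose mean raw count over all libraries was at least 2. Of 17337 genes in the table, 27 had such a symbol and 23 met the minimum. The libraries came from 41 rats of the F1 generation of Wistar Kyoto females and Lewis males, with 1 library of cardiomyocytes from the right ventricle (RV) and 1 from the left ventricle (LV) of each animal, 82 in all. A loose clip around the pulmonary artery (pulmonary artery banding, PAB) loaded the RV as the animal grew, a clip around the aorta (aortic banding, AOB) loaded the LV, and sham-operated animals were the controls. The compensatory stage carried the suffix H and the decompensatory stage, with heart failure, the suffix F. In each ventricle the H stage had 7 sham, 6 PAB and 6 AOB libraries, and the F stage had 9 sham, 6 PAB and 7 AOB libraries. The labels gave an age of 11 weeks and a treatment time of 7 weeks for the 3 H groups, 31 and 26 weeks for Sham-F and AOB-F, and 28 and 22 weeks for PAB-F, so that PAB-F rats had a lower age than the Sham-F rats they were compared with. The study's own text gives other ages at harvest. Both sexes were present in every group. Hearts were perfused with collagenase and the myocytes were separated from other cell types by centrifugation, without a sort, and the total RNA was sequenced after rRNA depletion.

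Collagens are extracellular proteins whose chains wind around each other into a helix. The fibrillar types I, III and V build the interstitial fibres of the heart and are made mainly by fibroblasts. Type IV forms the sheet-like network of the basement membrane that surrounds each cardiomyocyte and each capillary, types XV and XVIII sit at the same membranes, type VI forms beaded filaments next to them, and type VIII is a short-chain collagen of vessel walls. A rise of fibrillar collagen is the usual mark of fibrosis in a pressure-loaded ventricle. Because these libraries were bulk RNA, a change in the number of cells of a type and a change in RNA per cell cannot be told apart in any of the values below.

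The 23 genes comprised 9 fibrillar collagens, 6 basement membrane collagens and 8 others, which were 1 beaded filament collagen, 1 short-chain network collagen, 3 FACIT collagens (fibril-associated collagens with interrupted helices) and 3 transmembrane collagens. By FPKM, a level per length of transcript and per sequencing depth, Col4a1, a main chain of type IV collagen, was highest, with a mean over all libraries of 121.8. Col3a1 (type III) followed at 50.1, Col15a1 at 30.3, Col6a2 just under that, Col1a1 (a chain of type I) at 22.7 and Col5a1 (type V) at 17.6. Col4a1 ranked first and Col3a1 second among the members in each of the 12 groups. Col2a1 and Col11a1, fibrillar collagens of cartilage, were lowest at 0.0510 and 0.0389, and these 2 genes did not pass the filter on low counts, so 21 members were tested. FPKM depends on the length assigned to each gene, and the length implied by the table for Col4a4 was 1.15 kb, against 5.03 kb for Col4a3, so its FPKM of 8.82 is not on the same footing as the others. The 4 symbols under the minimum were Col1a2, Col6a4, Col9a1 and Col26a1. Col1a2, the other chain of type I collagen, had 19 reads in all 82 libraries together, while Col1a1 had 152283, and the cause of that gap was not tested. Col4a2, Col6a1, Col6a3, Col8a2 and Col12a1 were not analysed here. Library totals ran from 6675287 to 19665439 counts (median 13074486). The tested members rested on very different numbers of reads, from a mean of 11210 counts per library for Col4a1 to 6.35 for Col23a1.

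Promoter sequence was at hand in RefSeq (build GRCr8) for 18 of the 23 genes, all of which had a gene identifier known to RefSeq. Col1a1, Col2a1, Col3a1, Col6a2 and Col14a1 had no entry. The windows below are the 250 bases before the annotated start, 5′ to 3′ on the strand of the gene, and capitals mark each GGGCGG, a GC box, or its reverse complement CCGCCC. Col8a1 is shown because it had the largest fold change in both PAB comparisons, Col5a2 because it lies next to Col3a1 in the genome and was called in both, and Col4a3 because its levels differed in the opposite direction from most other members. The window of Col8a1 is chr11:56246532-56246781 on the plus strand, that of Col5a2 is chr9:55090152-55090401 on the minus strand, and that of Col4a3 is chr9:91323740-91323989 on the plus strand.
Col8a1: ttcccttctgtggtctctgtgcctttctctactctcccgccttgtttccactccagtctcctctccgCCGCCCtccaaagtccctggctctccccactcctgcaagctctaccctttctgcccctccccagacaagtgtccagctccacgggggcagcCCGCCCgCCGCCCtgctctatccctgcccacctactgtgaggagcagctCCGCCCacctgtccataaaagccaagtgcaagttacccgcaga
Col5a2: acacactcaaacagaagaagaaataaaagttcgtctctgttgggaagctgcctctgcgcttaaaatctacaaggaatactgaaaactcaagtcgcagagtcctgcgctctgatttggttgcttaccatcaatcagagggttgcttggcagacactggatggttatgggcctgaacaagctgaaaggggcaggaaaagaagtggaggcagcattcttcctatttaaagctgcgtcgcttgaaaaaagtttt
Col4a3: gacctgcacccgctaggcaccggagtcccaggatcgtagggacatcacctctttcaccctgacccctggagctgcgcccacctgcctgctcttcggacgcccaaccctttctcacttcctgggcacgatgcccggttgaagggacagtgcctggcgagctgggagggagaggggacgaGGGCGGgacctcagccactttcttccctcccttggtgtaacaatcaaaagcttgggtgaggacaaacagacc
Col8a1 held 4 GC boxes, Col4a3 held 1 and Col5a2 none. At least 1 was present in 12 of the 18 members and in 30.5% of all 33469 promoter windows of the same length. The motif CCAAT or its reverse complement ATTGG was present in 4 members and in 34% of all windows, and TATAAA or TTTATA in 2 members and in 12.9%. The median GC content was 62.4% in the members and 51.2% over all windows. In gene order, Col4a4 and Col4a3 are neighbours on opposite strands, and their windows overlap. A match of letters is a description of the window and not a binding site.

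Some libraries stood apart before any comparison was made. Collagen genes took between 0.0922% and 0.123% of the counts in the 7 RV Sham-H libraries. In the 6 RV PAB-H libraries they took 0.253%, 0.445%, 0.157%, 0.150%, 0.131% and 0.122% (replicates 1 to 6), so replicate 2 held by far the most and replicate 6 lay inside the sham range. The RV Sham-F libraries ran from 0.0684% to 0.112%, and the 6 RV PAB-F libraries had 0.318%, 0.151%, 0.134%, 0.0945%, 0.124% and 0.0994%. Replicate 1 of RV PAB-F therefore held more than 2 times the share of the next library, and replicates 4 and 6 lay inside the sham range. By raw count divided by the library total, RV PAB-H replicate 2 was the highest of its group for 18 of the 23 collagens, and RV PAB-F replicate 1 for 17. LV AOB-H replicate 6, whose total of 6675287 counts was the smallest of the series, was highest for 20, RV AOB-H replicate 6 for 19 and LV PAB-H replicate 2 for 18. The collagen fold changes called for PAB in the RV are therefore given also without RV PAB-H replicate 2 and RV PAB-F replicate 1.

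**Figure D1:**
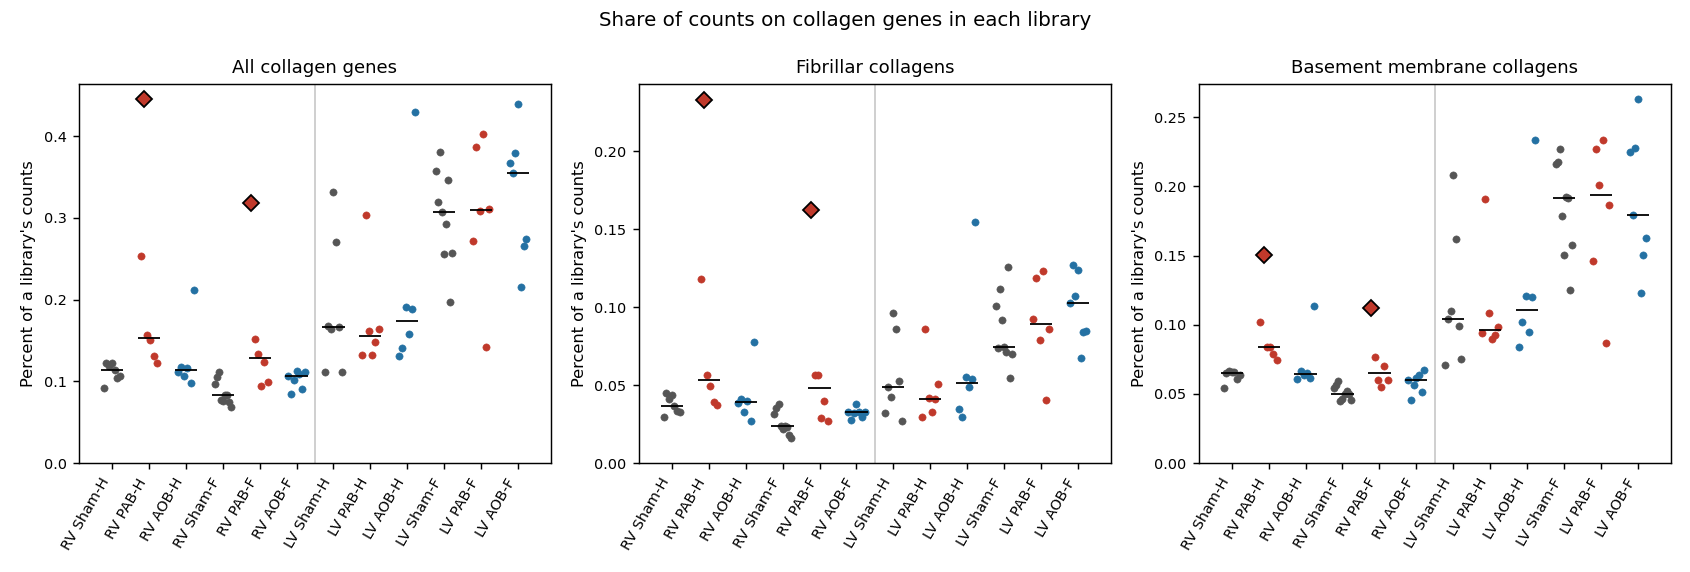
Each point is 1 library, placed by group on the horizontal axis, and the vertical axis is the percent of its raw counts that fell on all 23 collagen genes (left), on the 9 fibrillar genes (middle) and on the 6 basement membrane genes (right). Horizontal lines are group medians, colours mark sham (grey), PAB (red) and AOB (blue), and the 2 black-edged diamonds are RV PAB-H replicate 2 at 0.445% and RV PAB-F replicate 1 at 0.318% of counts on all collagens.

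The same libraries were high in markers of other cell types. A list of 10 fibroblast markers (among them Pdgfra, Dcn and Tcf21) took 0.128% of counts in RV PAB-H replicate 2, 0.0664% in replicate 1 and 0.0770% in RV PAB-F replicate 1, while the RV sham libraries ran from 0.00854% to 0.0213% in Sham-H and from 0.00970% to 0.0324% in Sham-F. The 8 endothelial markers took 0.204% and 0.190% in RV PAB-H replicate 2 and RV PAB-F replicate 1, against at most 0.105% in any RV sham library. The group medians of RV PAB-H (0.135%) and RV PAB-F (0.123%) lay above that sham maximum too. The RV AOB-H libraries ran from 0.0661% to 0.245%. In RV PAB-H replicate 2 and RV PAB-F replicate 1, 9 ventricular cardiomyocyte markers took 9.08% and 7.23% of counts, in each case the lowest value of its group. Of the fibroblast markers, 9 were detected in all 82 libraries and Thy1 was at 0 in 11. Myh6, the main myosin heavy chain of rat ventricle, was never below 66833 raw counts. RNA of fibroblast and endothelial genes was thus present in every library of the isolated myocytes, and its part in the collagen differences was not tested.

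**Figure D2:**
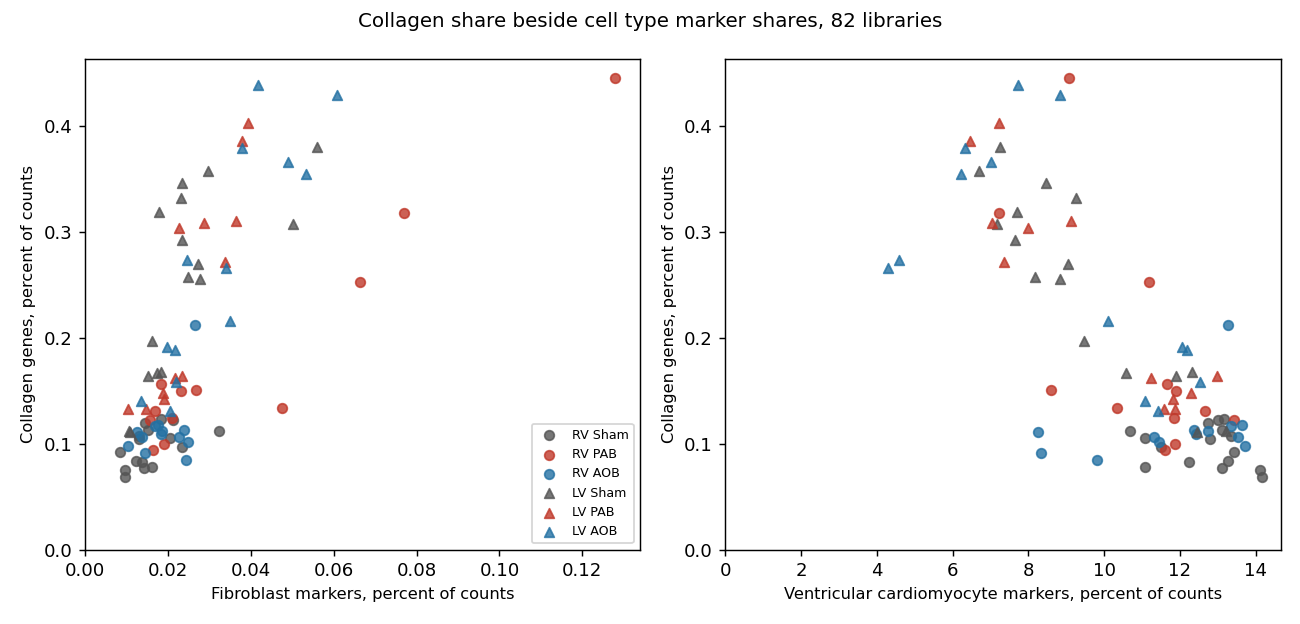
Each of the 82 points is a library, circles for the RV and triangles for the LV, with the percent of counts on the 23 collagen genes on the vertical axis and the percent on 10 fibroblast markers (left) or 9 ventricular cardiomyocyte markers (right) on the horizontal axis. The red circle at the top, RV PAB-H replicate 2, had 0.445% on collagens and 0.128% on fibroblast markers.

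The first comparison was between the RV under compensated load and its sham control. In RV PAB-H, 9 of the 21 tested collagens rose against RV Sham-H and 0 fell (edgeR quasi-likelihood test, Benjamini-Hochberg adjusted p under 0.05), where 3.91% of all 11954 genes tested rose and 0.594% fell. The median log2 fold change of the 21 was 0.66 and that of all genes 0.00. By class, 3 of 7 fibrillar, 2 of 6 basement membrane, 1 of 1 beaded filament, 1 of 1 short-chain, 2 of 3 FACIT and 0 of 3 transmembrane collagens rose. When RV PAB-H replicate 2 was left out together with RV PAB-F replicate 1, 0 of the 21 were called, where 0.218% of all genes rose. At an unadjusted p under 0.05, 10 of the 21 still passed without them, against 10.8% of all genes, and the median log2 fold change was 0.49. Leaving out replicate 2 alone also gave 0 calls and replicate 1 alone gave 2. Without RV Sham-H replicate 1, 5 or 7 there were 4 calls and without replicate 6 there were 2, so none of the 9 held in all 13 fits that left out 1 library. Without RV Sham-H replicate 1, 303 of all 11954 genes were called as higher, against 467 in the full fit. For the other fits that left out 1 library the count over all genes is not given here.

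Col8a1, a chain of the short-chain collagen VIII, had the largest fold change. Its normalized count, scaled to a library of 13279120 counts, was 40.5 at the lowest, 55.3 at the median and 72.7 at the highest in RV Sham-H, and 63, 136 and 766 in RV PAB-H. Of the 6 banded libraries, 5 lay above all sham libraries and replicate 6 lay among them. The log2 fold change was 2.09 ± 0.41 (SE, adjusted p = 0.00184, n = 6 against 7, edgeR). Without the 2 libraries it was 1.20 ± 0.32 with an edgeR adjusted p of 0.0746.

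The main fibrillar chains followed. Col3a1, the chain of type III collagen, had normalized counts of 1632, 2103 and 2686 (lowest, median, highest) in RV Sham-H and 2087, 3190 and 15240 in RV PAB-H, and 4 of the 6 banded libraries lay above all sham libraries. Its log2 fold change was 1.37 ± 0.37 (SE, adjusted p = 0.0227, edgeR) and 0.75 ± 0.32 without the 2 libraries, with an adjusted p of 0.373. Col1a1, of type I collagen, had 654, 991 and 1339 in RV Sham-H and 1082, 1408 and 6744 in RV PAB-H. Its log2 fold change was 1.30 ± 0.36 (adjusted p = 0.0272) and 0.70 ± 0.32 without them (adjusted p = 0.409). Among these chains the highest banded values all belonged to replicate 2 and the next to replicate 1, while the other 4 libraries lay within or just above the sham range. Col5a2, a type V chain that helps to start fibrils, rose by 0.91 ± 0.28 (adjusted p = 0.0406), and its partner Col5a1 had 0.66 ± 0.21 with an adjusted p of 0.0564. With these libraries left out, Col5a2 had 0.49 (adjusted p = 0.463) and Col5a1 0.39 (adjusted p = 0.477).

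Of the fibril-associated collagens, Col14a1 rose by 1.27 ± 0.33 on the log2 scale (adjusted p = 0.018) and Col16a1 by 1.06 ± 0.30 (adjusted p = 0.0283). Col14a1 was at 381, 455 and 570 in RV Sham-H and at 468, 715 and 2791 in RV PAB-H, with 5 of 6 banded libraries above all sham libraries. Neither gene was called without the 2 libraries, where Col14a1 had 0.75 (adjusted p = 0.323) and Col16a1 0.65 (adjusted p = 0.371). Among the collagens of basement membranes and their surroundings, Col7a1, which forms anchoring fibrils, rose by 1.17 ± 0.34, Col6a2 by 1.03 ± 0.29 and Col18a1, whose C-terminal fragment is endostatin, by 0.93 ± 0.29. Col15a1 had 0.94 ± 0.31 with an adjusted p of 0.0591. When both libraries were left out, Col7a1 had 0.79, Col6a2 0.66, Col18a1 0.68 and Col15a1 0.59, with adjusted p from 0.358 to 0.484.

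Col4a1, the member of highest level, showed a small difference that was shared by every banded library. Its normalized counts ran from 5370 to 6877 in RV Sham-H (median 6682) and from 8036 to 11100 in RV PAB-H (median 8430), so that all 6 banded libraries lay above all 7 sham libraries. It was the only one of the 21 members whose groups did not overlap, where 3.24% of all genes did not. That count was near the share of all genes and is not read as a trait of the collagens. The log2 fold change was 0.47 ± 0.19 and did not pass (edgeR adjusted p = 0.126), and it was 0.39 without the 2 libraries (adjusted p = 0.463). The other type IV chains measured, Col4a3 and Col4a4, had log2 fold changes of -0.34 ± 0.23 and 0.06 ± 0.22, neither of them called, and -0.38 and -0.03 without the 2 libraries.

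The same question was asked of the failing RV. In RV PAB-F, 7 of 21 collagens rose against RV Sham-F and 0 fell, where 7.66% of all genes rose and 3.42% fell. The median log2 fold change was 0.53 in the 21 and 0.02 in all genes. By class, 4 of 7 fibrillar, 1 of 6 basement membrane, 1 of 1 short-chain, 1 of 3 FACIT and 0 of 3 transmembrane collagens rose, and the beaded filament collagen Col6a2 had 0.71 ± 0.27 (adjusted p = 0.0765), or 0.51 without the 2 libraries (adjusted p = 0.318). Without the 2 libraries 1 of the 21 was called, Col8a1, where 2.18% of all genes rose, and the median of the 21 was 0.38. The difference between the responses of the 2 stages passed for 0 of the 21 in edgeR, also at an unadjusted p under 0.05, and for 0 in DESeq2, where 0% of all genes passed adjusted and 1.48% unadjusted.

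Col8a1 was again first. Its normalized counts were 27.6, 56.9 and 81.3 (lowest, median, highest) in RV Sham-F and 79.3, 149 and 801 in RV PAB-F, with 5 of 6 banded libraries above all 9 sham libraries. The log2 fold change was 2.13 ± 0.38 (SE, adjusted p = 4.84e-05, edgeR) and 1.24 ± 0.30 without the 2 libraries (adjusted p = 0.0089). Of the 7 calls, Col8a1 was the 1 that held whichever of the 15 libraries was left out, and without RV PAB-F replicate 1 alone it was the 1 collagen called. The share of all genes called in the fits without 1 library is not given here.

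Col3a1 had normalized counts of 672, 1131 and 2145 in RV Sham-F and 981, 2864 and 10840 in RV PAB-F, and 3 of the 6 lay above all sham libraries. Its log2 fold change was 1.53 ± 0.35 (adjusted p = 0.00169) and 0.86 ± 0.31 without the 2 libraries (adjusted p = 0.108). Col1a1 had 302, 509 and 725 in RV Sham-F and 522, 957 and 3845 in RV PAB-F, with 5 of 6 above all sham libraries, a log2 fold change of 1.43 ± 0.34 (adjusted p = 0.00334) and 0.82 ± 0.31 without the 2 libraries (adjusted p = 0.137). Replicate 1 held the highest value of each of these chains. Col14a1 rose by 1.08 ± 0.31 (adjusted p = 0.0141), Col5a2 by 0.94 ± 0.26 (adjusted p = 0.012) and Col5a1 by 0.74 ± 0.20 (adjusted p = 0.0107). None of these 3 was called without the 2 libraries, where they had 0.57 (adjusted p = 0.273), 0.51 (adjusted p = 0.242) and 0.50 (adjusted p = 0.143).

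In the basement membrane class Col4a1 passed in RV PAB-F, with a log2 fold change of 0.53 ± 0.18 (adjusted p = 0.0395), and was not called without the 2 libraries (0.40, adjusted p = 0.246). Its counts were 4142, 4605 and 5514 in RV Sham-F and 4798, 6662 and 9767 in RV PAB-F, so that the groups overlapped. No member was free of overlap in this comparison, where 2.71% of all genes were. Col18a1, Col16a1 and Col7a1, called in PAB-H, had 0.49 ± 0.27, 0.41 ± 0.29 and 0.71 ± 0.31 here, with adjusted p from 0.126 to 0.358. In the fit without both libraries they had 0.16, 0.03 and 0.43. Col4a3 lay at -0.56 ± 0.22 (adjusted p = 0.0788) and at -0.48 without them (adjusted p = 0.266).

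**Figure D3:**
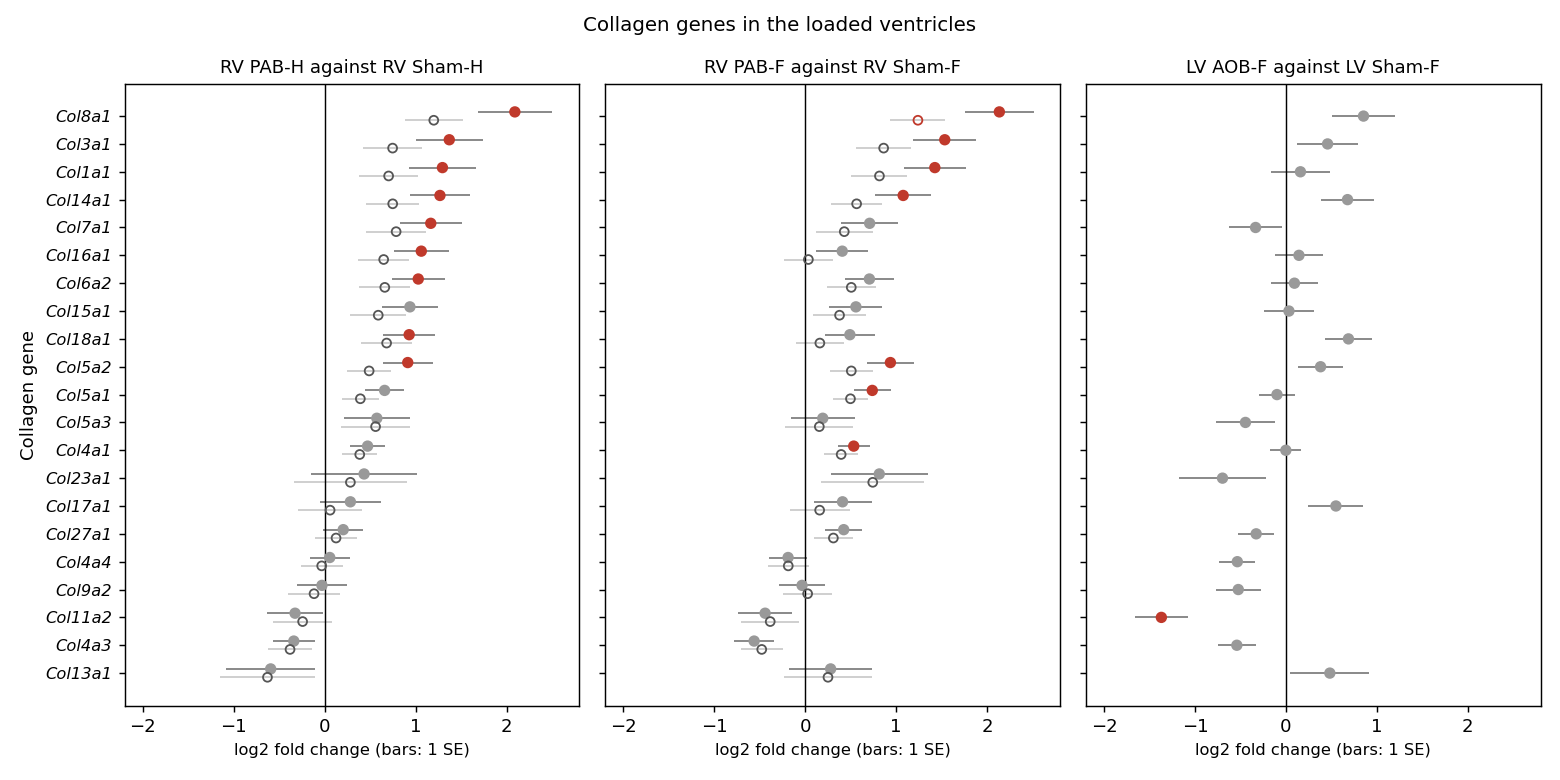
Log2 fold changes of the 21 tested collagen genes (rows) in RV PAB-H, RV PAB-F and LV AOB-F against the sham group of the same ventricle and stage, with bars of 1 SE. Filled points are the fit of all 82 libraries and open points the fit without RV PAB-H replicate 2 and RV PAB-F replicate 1, with red for adjusted p under 0.05. Col8a1 moves from 2.09 to 1.20 in PAB-H and from 2.13 to 1.24 in PAB-F.

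**Figure D4:**
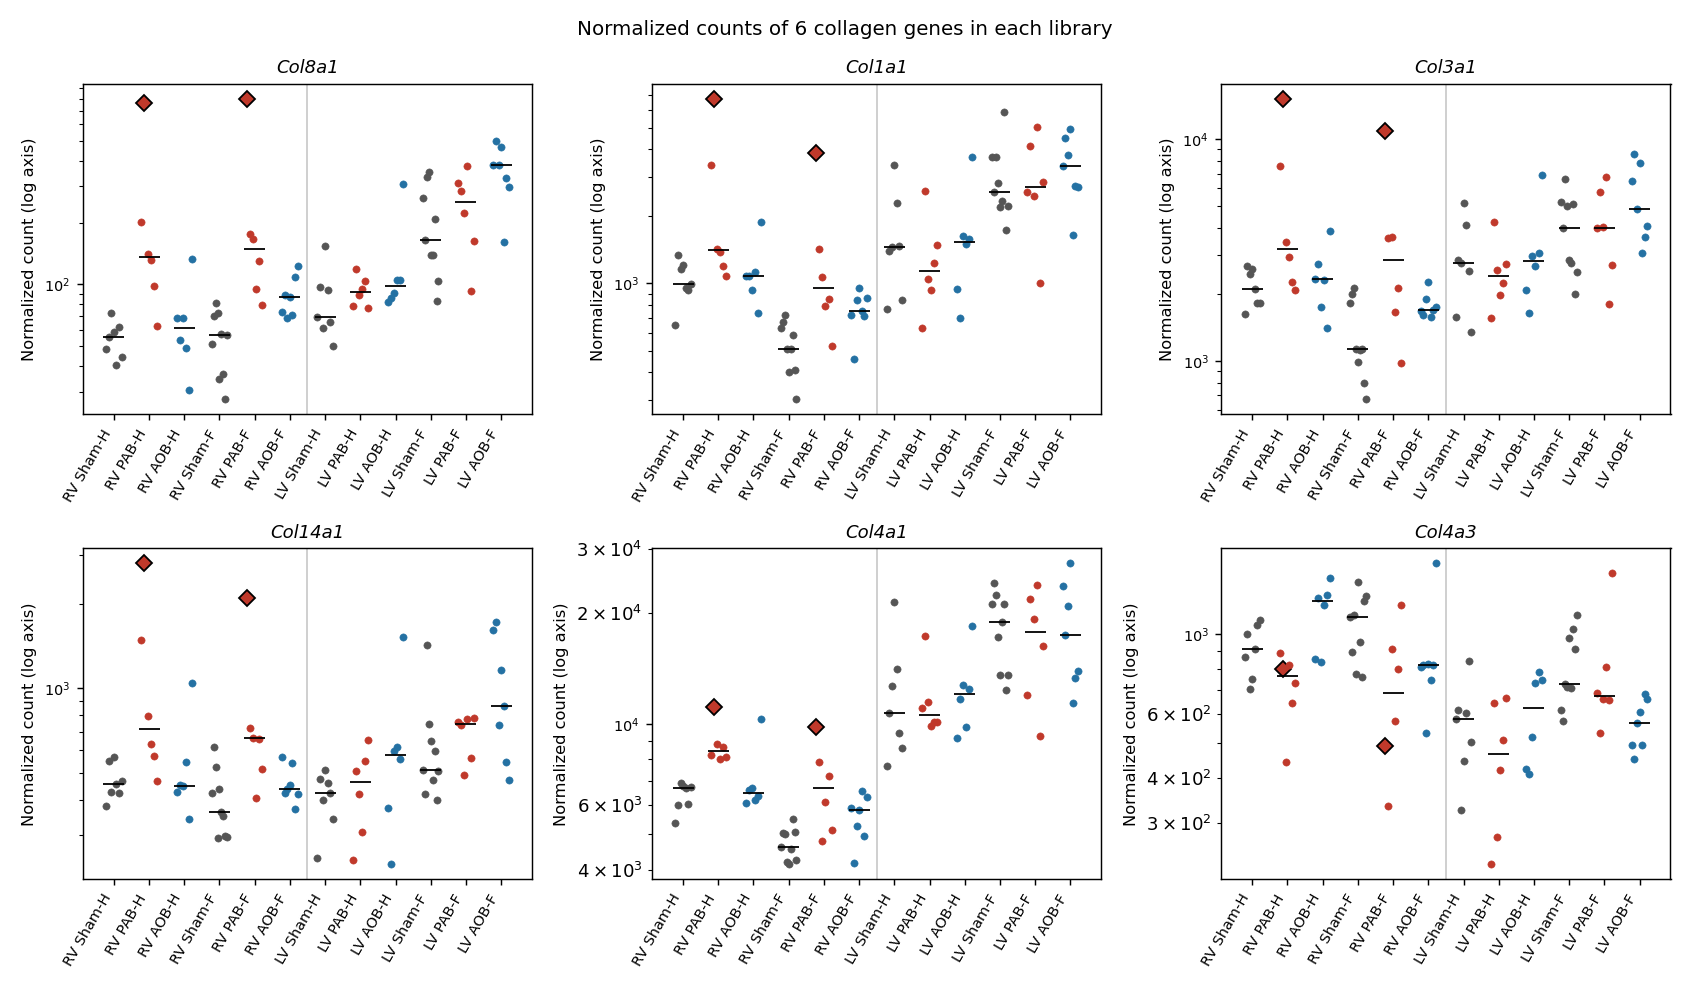
Normalized counts on a log axis of Col8a1, Col1a1, Col3a1, Col14a1, Col4a1 and Col4a3 in each library (points) of the 12 groups, with medians as lines. The black-edged diamonds are RV PAB-H replicate 2 and RV PAB-F replicate 1, which are highest in their group for the first 5 genes and not for Col4a3. For Col1a1 and Col4a1 the medians of the LV groups of the F stage lie above those of the RV groups. The libraries of RV PAB-F and LV PAB-F overlap for both genes.

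The sexes were not evenly spread over the RV groups. RV PAB-H and RV PAB-F each held 4 males and 2 females, RV Sham-H 3 males and 4 females and RV Sham-F 4 males and 5 females. In PAB-H the collagen share was 0.150% to 0.445% in males and 0.122% to 0.131% in females, against 0.0922% to 0.123% and 0.104% to 0.123% in sham males and females. In PAB-F it was 0.0945% to 0.318% in males and 0.0994% to 0.124% in females, against 0.0778% to 0.112% and 0.0684% to 0.0839% in sham. With sex as a covariate 2 collagens were called in PAB-H, Col8a1 and Col14a1, where 273 of all 11954 genes tested were called as higher. In PAB-F 6 collagens were called with sex, and the count over all genes is not given here.

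The loaded LV was compared with its sham group in the same way. In LV AOB-H 0 of 21 collagens were called against LV Sham-H by edgeR and 0 by DESeq2, where 0.0167% of all genes were called. At an unadjusted p under 0.05, 1 of 21 passed, Col14a1 at 0.67 ± 0.33, against 20% of all genes. Col1a1 had a log2 fold change of 0.01 (95% interval -0.70 to 0.72), Col3a1 of 0.15 (-0.57 to 0.87) and Col8a1 of 0.58 (-0.20 to 1.37). Col8a1 was at 50.2, 69.3 and 154 in LV Sham-H and at 82.6, 97.7 and 307 in LV AOB-H, the highest being replicate 6.

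In the failing LV 1 collagen fell and 0 rose, where 4.35% of all genes fell and 8.54% rose. The count that fell was near the share of all genes and is not read as a trait of the collagens. The gene that fell was Col11a2, a chain of the minor fibrillar type XI best known from cartilage. Its log2 fold change was -1.37 ± 0.29 (SE, adjusted p = 0.00128, n = 7 against 9, edgeR). Its normalized counts were 102, 251 and 333 (lowest, median, highest) in LV Sham-F and 43.7, 66.4 and 189 in LV AOB-F, and 5 of the 7 banded libraries lay below all sham libraries. Col8a1 was at 83.3, 164 and 352 in LV Sham-F and at 161, 380 and 496 in LV AOB-F, with 4 of 7 above all sham libraries and a log2 fold change of 0.85 ± 0.34 (95% interval 0.18 to 1.53, adjusted p = 0.0844). Col18a1 had 0.69 ± 0.25 (adjusted p = 0.0578) and was called by DESeq2. For the fibrillar chains, Col1a1 had 0.16 (95% interval -0.48 to 0.80) and Col3a1 0.46 (-0.19 to 1.11). The levels of Col1a1 were already high in the LV Sham-F libraries, at 1730, 2574 and 5886, against 1655, 3374 and 4905 in LV AOB-F. The count of calls depended on single libraries: 4 collagens passed without LV Sham-F replicate 3, 2 without replicate 4, 3 without LV AOB-F replicate 3 or 4, and 2 without replicate 5, and Col11a2 was among them each time. The share of all genes called in these fits is not given here.

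In the ventricle that was not loaded no collagen was called. The LV of PAB-H animals had 0 of 21 by edgeR (0 unadjusted, 0 in DESeq2), where 0% of all genes were called and 2.55% passed unadjusted. The LV of PAB-F animals likewise had 0 (0 unadjusted, 0 in DESeq2), against 0% and 3.8%. The RV of AOB-H animals had 0, with 1 unadjusted (Col7a1, log2 fold change 0.74 ± 0.34) and 0 in DESeq2, against 0% and 1.43%. The RV of AOB-F animals had 0, with 1 unadjusted (Col18a1, 0.73 ± 0.26) and 0 in DESeq2, against 0.0669% and 4.32%. The median log2 fold change of the 21 was -0.12 in the LV of PAB-H animals, and 0.18 and 0.22 in the RV of AOB-H and AOB-F animals.

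Whether the response of the RV exceeded that of the LV in the same animals was tested as a difference of the responses. For PAB-H 0 of 21 collagens passed (0 in DESeq2), where 0% of all genes did, and 12 of 21 passed unadjusted against 9.24% of all genes. Col8a1 had the largest difference, 1.96 ± 0.57, followed by Col1a1 at 1.63 ± 0.52 and Col3a1 at 1.56 ± 0.52, each with an edgeR adjusted p of 0.398. When both libraries were left out these differences were 1.06, 1.03 and 0.93 (adjusted p = 0.914 each), and 7 of 21 passed unadjusted against 4.26% of all genes. For PAB-F 0 passed (0 in DESeq2), where 0.351% of all genes did, and 7 passed unadjusted against 12.9%. The difference for Col8a1 was 1.85 ± 0.53 (adjusted p = 0.111). Leaving out both libraries gave 0.95 ± 0.41 (adjusted p = 0.611), and Col8a1 was the 1 of 21 that passed unadjusted, against 7.75% of all genes. With the animal as a block, since RV and LV of 1 animal were paired by the labels, Col8a1 was called in PAB-F at 1.44 ± 0.40 (adjusted p = 0.0346), where 2.92% of all genes were called, and it was not called when the animal of RV PAB-F replicate 1 was left out with that of RV PAB-H replicate 2 (1.06 ± 0.33, adjusted p = 0.134). For PAB-H the block gave no collagen call, where 0.0418% of all genes were called.

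Further differences bear on the loaded sides. For AOB-F, the LV response minus the RV response, 0 of 21 passed (0 in DESeq2), against 0% of all genes, with 1 unadjusted (Col11a2, -1.08 ± 0.40) against 9.71%. The RV response to PAB-F minus the LV response to AOB-F gave 0 calls (0 in DESeq2), where 3.15% of all genes were called, and 9 of 21 unadjusted against 22.4%. There Col1a1 had a difference of 1.26 ± 0.48 (adjusted p = 0.108) and Col5a1 of 0.83 ± 0.28 (adjusted p = 0.0756). In the fit without both libraries these were 0.65 (adjusted p = 0.386) and 0.59 (adjusted p = 0.195), and 3 of 21 passed unadjusted (Col5a1, Col11a2 and Col27a1) against 19.3% of all genes. Calls on 1 side and not on the other are therefore not shown to differ between the ventricles in this fit.

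Genes that fold, process and bind collagen were read from lists of their own. Of 14 tested genes of collagen folding and modification, 2 rose in RV PAB-H, 4 in the RV at the F stage of PAB and 2 in LV AOB-F, and 0 fell in each, where 3.91%, 7.66% and 8.54% of all genes rose. The LV AOB-F count was thus near that of all genes. Plod2, the lysyl hydroxylase that sets the type of cross-link, rose by 1.35 ± 0.30 in RV PAB-H (adjusted p = 0.00587) and by 1.5 ± 0.28 in RV PAB-F (adjusted p = 0.000118), and without the 2 libraries it had 0.86 (adjusted p = 0.146) and 0.96 (adjusted p = 0.0112). P3h2, a prolyl hydroxylase, rose in both as well, and without the 2 libraries it had 0.84 (adjusted p = 0.146) and 0.52 (adjusted p = 0.234). Serpinh1, the collagen chaperone HSP47, had 0.07 ± 0.15 and 0.24 ± 0.14 and was not called. In LV AOB-F the genes that rose were P4ha1 and P4hb, the subunits of prolyl 4-hydroxylase, by 0.48 ± 0.16 and 0.49 ± 0.11.

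Of 14 tested genes of processing and cross-linking, 5 rose in RV PAB-H, 6 rose and 1 fell in RV PAB-F, and 0 changed in LV AOB-F (edgeR, 1 at an unadjusted p under 0.05). Of all genes, 3.91% rose in RV PAB-H, 7.66% rose and 3.42% fell in RV PAB-F, and 8.54% rose and 4.35% fell in LV AOB-F. Loxl1, a lysyl oxidase-like enzyme, rose by 1.62 ± 0.37 and 1.43 ± 0.35, Loxl2 by 1.08 ± 0.24 and 1.14 ± 0.23, and Pcolce, which enhances removal of the procollagen C-propeptide, by 1.08 ± 0.26 and 1.43 ± 0.25 in RV PAB-H and RV PAB-F. Bmp1, the protease that Pcolce assists, had 0.14 ± 0.17 and 0.23 ± 0.16, and Lox 0.75 ± 0.35 and 0.77 ± 0.33, none of them called. The gene that fell was Adamts3, a procollagen N-proteinase, by 0.81 on the log2 scale. Of 6 tested collagen receptors, 1 rose in each RV comparison, Ddr2, a receptor tyrosine kinase for fibrillar collagen, by 1.30 ± 0.23 (adjusted p = 0.000726) and 1.23 ± 0.22 (adjusted p = 3.91e-05). In LV AOB-F it had 0.17 ± 0.21, and there the receptors that rose were Itgb1 and Itga1. Without the 2 libraries Ddr2 was still called in RV PAB-H (0.86 ± 0.21, adjusted p = 0.0291) and in RV PAB-F (1.02 ± 0.19, adjusted p = 0.000328). Of the folding and processing lists 0 genes were then called in RV PAB-H, where 0.218% of all genes rose. In RV PAB-F 1 (Plod2) and 3 (Loxl2, Pcolce and Adamts14) were called, where 2.18% rose. Loxl1 had 1.07 (adjusted p = 0.182) and 0.87 (adjusted p = 0.133) in RV PAB-H and RV PAB-F. In RV PAB-H Loxl2 had 0.77 (adjusted p = 0.122) and Pcolce 0.66 (adjusted p = 0.253). Adamts3 was at -0.79 in RV PAB-F (adjusted p = 0.0764).

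Among markers of other cell types, those of fibroblasts had the most calls in the RV. Of 10 fibroblast markers, 8 rose in RV PAB-H and 5 in RV PAB-F, with medians of 1.36 and 1.14, and 0 fell, where 3.91% and 7.66% of all genes rose. Without the 2 libraries 0 and 2 were called, Fap and Mfap5 being the 2, where 0.218% and 2.18% of all genes rose. Of 8 endothelial markers 1 rose in each, of 7 mural markers 1 and 2, and of 8 macrophage markers 0 and 3. The endothelial count in RV PAB-F was near the share of all genes, and the macrophage count in RV PAB-H was not above it. Without the 2 libraries, 0 endothelial, 0 mural and 0 macrophage markers were called in RV PAB-H. In RV PAB-F 1 endothelial marker (Pecam1), 0 mural and 0 macrophage markers were then called. The shares of all genes that rose in those fits were the same 0.218% and 2.18%. Of 9 ventricular cardiomyocyte markers 0 changed, with medians of -0.25 and -0.23 (edgeR, 2 and 3 at an unadjusted p under 0.05).

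The 2 ventricles of sham animals were compared next. In Sham-H, 1 of the 21 collagens was higher in the RV and 3 were lower, where 9.62% of all genes were higher and 11.4% lower. Both counts were near those shares and are not read as a trait of the collagens. Col4a3, a type IV chain of specialised basement membranes, had normalized counts of 706, 909 and 1096 (lowest, median, highest) in the RV and 325, 581 and 845 in the LV, with a log2 fold change of 0.70 ± 0.22 (adjusted p = 0.0176, edgeR). Col15a1 was lower in the RV by 1.08 ± 0.30, Col4a1 by 0.93 ± 0.18 and Col6a2 by 0.84 ± 0.28, all on the log2 scale. For Col4a1 the 7 RV libraries lay between 5370 and 6877 and the 7 LV libraries between 7662 and 21510, without overlap. Of the marker lists, 2 of 10 fibroblast, 4 of 8 endothelial and 4 of 7 mural markers were lower in the RV, where 11.4% of all genes were. The fibroblast count was near that share. Of 9 cardiomyocyte markers 0 passed (edgeR, 3 at an unadjusted p under 0.05). LV Sham-H replicates 4 and 5 had collagen shares of 0.332% and 0.270%, the others of that group at most 0.168%. Without these 2 libraries 0 of the 21 collagens were called (4 unadjusted). With the animal as a block 8 were called, the same 4 among them, and of the 8 the RV was higher for 3 and lower for 5. The shares of all genes called in these fits are not given here.

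At the F stage more members passed, and so did more of all genes. In Sham-F, 15 of 21 collagens were lower in the RV than in the LV and 0 were higher, where 38.6% of all genes were lower and 35.6% higher. The groups did not overlap for 10 of the 21, which was near the share of 41.8% over all genes. The fibrillar class had 5 of 7 lower and the basement membrane class 5 of 6. Col1a1 differed most, by -2.52 ± 0.33 (adjusted p = 1.78e-10), with 302 to 725 in the RV and 1730 to 5886 in the LV. Col15a1 followed at -2.23 ± 0.27, Col6a2 at -2.16 ± 0.26, Col5a3, a type V chain, at -2.11 ± 0.32, Col4a1 at -1.96 ± 0.17 and Col8a1 at -1.86 ± 0.35. Col4a1 was at 4142, 4605 and 5514 in the RV and at 12370, 18910 and 24240 in the LV, so that its highest RV library held less than the lowest LV library by more than 2 times. Col4a3 was at 762 to 1401 in the RV and 576 to 1135 in the LV and was not called, while with the animal as a block it was called as higher in the RV. Its neighbour Col4a4 was lower in the RV by 0.87 ± 0.19.

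The marker lists differed between the ventricles in the same direction. In Sham-F, 7 of 10 fibroblast, 6 of 8 endothelial, 5 of 7 mural and 5 of 8 macrophage markers were lower in the RV, while 1 endothelial marker was higher. Of all genes, 38.6% were lower and 35.6% higher. Of 9 ventricular cardiomyocyte markers, 6 were higher and 1 was lower. The summed share of the endothelial markers ran from 0.0605% to 0.104% in RV Sham-F and from 0.156% to 0.331% in LV Sham-F, and that of the cardiomyocyte markers from 10.7% to 14.2% and from 6.68% to 9.47%. Their part in the collagen difference was not tested.

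Between the 2 stages of sham animals, calls were made in the LV and none in the RV. In LV Sham-F 12 of 21 collagens were higher than in LV Sham-H and 0 lower, where 27.8% of all genes were higher and 29.6% lower, and all 6 tested basement membrane collagens were among them. Col16a1 was higher by 1.32 ± 0.28 on the log2 scale (adjusted p = 5.26e-05), Col7a1 by 1.24 ± 0.31, Col8a1 by 1.22 ± 0.37, Col18a1 by 1.11 ± 0.26, Col1a1 by 0.86 ± 0.33 and Col4a1 by 0.60 ± 0.17. Without LV Sham-H replicates 4 and 5, 16 were called, the same 12 among them, and Col3a1 was 1 of those added. The share of all genes called in that fit is not given here. Marker shares differed between these groups too. From LV Sham-H to LV Sham-F the mean share of endothelial markers went from 0.154% to 0.243%, of mural markers from 0.0655% to 0.121%, of fibroblast markers from 0.0175% to 0.0299% and of cardiomyocyte markers from 11.3% to 7.93%, and their part in the collagen differences was not tested. In the RV 0 of 21 were called by edgeR and 0 by DESeq2, where 0.0502% of all genes were called, with 3 unadjusted against 5.03%. These were Col1a1 at -0.97 ± 0.33, Col3a1 at -0.72 ± 0.33 and Col4a1 at -0.43 ± 0.17.

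**Figure D5:**
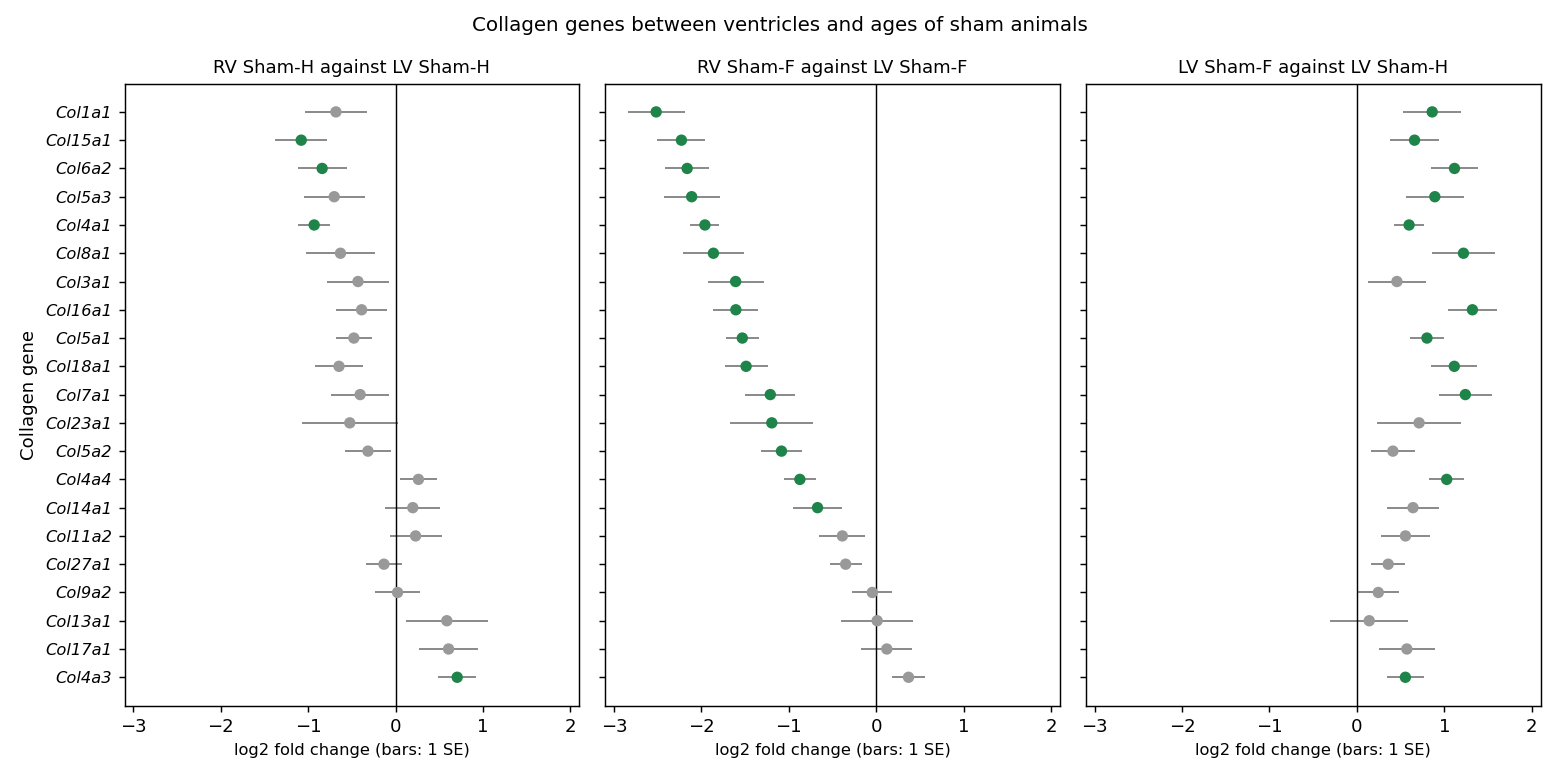
Log2 fold changes of the 21 tested collagen genes (rows) between RV and LV in Sham-H (left) and Sham-F (middle), and between Sham-F and Sham-H in the LV (right), with bars of 1 SE and green for adjusted p under 0.05. Col1a1 is at -2.52 in the middle panel, and Col4a3 at 0.70 in the left panel is the called point to the right of 0 there.

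Across all 12 groups the ordering of levels differed by gene. By mean FPKM, Col1a1 was lowest in RV Sham-F (6.71) and highest in LV AOB-F (43.4), and Col8a1 likewise (1.65 and 11.0). Col4a1 ranged from 53.1 in RV Sham-F to 208.5 in LV AOB-F, and the LV Sham-F libraries (137.6 to 278.7, mean 207.6, n = 9) and the LV AOB-F libraries (130.3 to 311.5, n = 7) did not differ beyond their spread. Col4a3 was highest in RV AOB-H. Col14a1 was highest in RV PAB-H, which rested on replicate 2: its mean normalized count there was 1124 with that library and 790 without it, against 1018 in LV AOB-F. Of the 23 members, RV Sham-F was the lowest group for 10 and LV AOB-F the highest for 10, and the smallest spans were those of Col9a2 (1.43 times) and Col27a1 (1.53 times).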

How the data were processed

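RNA of isolated ventricular cardiomyocytes was measured by paired-end sequencing of rRNA-depleted libraries, 1 from each ventricle of 41 rats. The authors trimmed the reads with Trim Galore, aligned them with STAR to Rnor6.0 with the UCSC annotation and counted them per gene with featureCounts, and the strand setting is not given in the sources used here. The deposited table holds, for 17337 genes, raw counts, normalized counts (a signal that the authors scaled with DESeq2 1.28.1) and FPKM. All of its sample columns were matched to samples by name.

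The raw counts were fitted with edgeR 4.0.16 (quasi-likelihood test, TMM, filterByExpr, R 4.3.3) in 1 model of 82 libraries with 12 group means. Of all genes, 11954 were tested. Calls used a Benjamini-Hochberg adjusted p under 0.05 over all of them, without the study's own fold and level criteria. The normalized counts printed are raw counts divided by TMM effective library size and scaled to a mean size of 13279120, and fold changes are log2. FPKM served to compare levels between genes, to order the means of the 12 groups without a test, and as an alternative measure of the collagen share. The fit was also run on simulated counts with 200 changed genes and the same spread for every gene. Those counts held no library that stood apart and no pairing by animal, so they do not bear on calls that depend on single libraries. The p-values rest on the spread between libraries within a group, each from another animal. This model does not use the pairing of RV and LV libraries by animal. DESeq2 1.42.0, other size factors, no filter, sex, replicate blocks and left-out libraries were tried as alternatives.

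RV and LV libraries were paired by the animal identifiers that the labels give. After the group means were taken off, they correlated with a median r of 0.186 to 0.297 within animals, against -0.0686 to -0.0142 between animals, and the lowest pair was at -0.141. The collagen genes, gene lists and tests were chosen with earlier results of these data known. Genes were named where they are main heart collagens, where they were among the 3 largest called changes of a comparison, where 5 or fewer were called in 1 direction, or where they had the highest FPKM. Other collagens named, Col4a4, Col5a3 and Col7a1 among them, were chosen after their values were seen.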

Additional observations from a re-analysis of the deposited data

Results flagged for a closer look

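Extreme libraries were looked for in 3 collagen shares and 8 collagen genes (Col1a1, Col3a1, Col4a1, Col4a3, Col5a1, Col8a1, Col11a2 and Col14a1), which made 132 groups of 6 to 9 libraries. The gap between an extreme library and its nearest neighbour was set against the range of the group, and 38 values stood apart. For normally distributed values this rule marks about 1 in 20 groups by chance. The values were not put on a log scale and the 132 groups share libraries, so the 38 cannot be set against that rate. All 38 were the highest of their group.

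RV PAB-F replicate 1 stood apart with 0.318% of counts on all collagens, 0.162% on fibrillar and 0.112% on basement membrane collagens. Its normalized counts of Col8a1 (801), Col1a1 (3845), Col3a1 (10840), Col14a1 (2099) and Col5a1 (2093) did so too. RV PAB-H replicate 2 stood apart in the basement membrane share (0.150%), in Col8a1 (766) and in Col4a1 (11100).

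Outside the PAB-loaded RV, LV AOB-H replicate 6 stood apart with shares of 0.430%, 0.155% and 0.234% on all, fibrillar and basement membrane collagens. Its Col8a1 was at 307, Col1a1 at 3697, Col3a1 at 6924, Col14a1 at 1524 and Col5a1 at 2421. RV AOB-H replicate 6 had shares of 0.212%, 0.0779% and 0.113%, with Col8a1 at 132.5, Col1a1 at 1890, Col14a1 at 1047, Col5a1 at 1779, Col4a1 at 10290 and Col11a2 at 447. LV PAB-H replicate 2 had shares of 0.304%, 0.0862% and 0.191%, with Col5a1 at 1811 and Col4a1 at 17390.

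In the F stage LV Sham-F replicate 7 stood apart in Col1a1 (5886) and Col5a1 (3099), LV Sham-F replicate 3 in Col14a1 (1432), LV PAB-F replicate 6 in Col4a3 (1485) and RV AOB-F replicate 7 in Col4a3 (1576).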

How the results depend on the processing

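In RV PAB-H the count of 9 called collagens became 2 with sex as a covariate, 0 without RV PAB-H replicate 2 and RV PAB-F replicate 1, 0 without RV PAB-H replicates 1 and 2 (chosen after the data were seen), and 0 to 11 when single libraries were left out. In RV PAB-F the count of 7 became 1 without RV PAB-H replicate 2 and RV PAB-F replicate 1, 4 with the replicate number as a block, which pairs no animals within a ventricle, and 1 to 9 when single libraries were left out. In LV AOB-F the count of 1 became 2 without a filter, with sex or in DESeq2, and 1 to 4 when single libraries were left out. With the animal as a block, the count became 8 in place of 4 between RV and LV of Sham-H and 1 in place of 0 for the PAB-F response in RV minus LV, and the pairing changed no other count by more than 1.5 times. Between RV and LV of Sham-H it was 0 without LV Sham-H replicates 4 and 5 (chosen after the data were seen). The cause was not tested in any of these. Uncalled values changed sign for Col1a1 in LV AOB-H (-0.0438 without a filter, -0.38 to 0.29 when single libraries were left out), for Col3a1 in LV AOB-H (-0.22 to 0.35 when single libraries were left out) and for Col1a1 in LV AOB-F (-0.0056 with the replicate number as a block). Leaving out LV PAB-H replicate 2, LV PAB-F replicate 5 or RV AOB-H replicate 6, chosen after the data were seen, gave 0 calls as before. Single libraries were not left out one by one in the comparisons between sham groups. For most fits without single libraries the count over all genes is not given here. As a share of summed FPKM in place of counts, the collagens took less in each group, for example 0.116% in LV AOB-F and 0.0346% in RV Sham-F. Depth limits the low members, Col2a1 and Col11a1, which could not be tested.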
